A study of Mus musculus with 25 samples.

Results

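The comparison described here is that of NEMOIEC-KO with Nemofl/fl mice, across all measured genes of the colon. Its members are 10 of the 25 libraries of the series, chosen by their genotype labels, with 5 mice in each group and 1 library per mouse. Nemofl/fl mice carry a floxed allele of the gene for NEMO and served as controls. NEMOIEC-KO mice lack NEMO in intestinal epithelial cells (IEC). All 10 mice were on the C57BL/6 background, ate regular chow under specific-pathogen-free conditions and were 6 weeks old when the distal colon was taken. The other 15 libraries are NEMOIEC-KO mice that also lack an IL-12 family subunit. They entered only the filter on low values, the estimate of the spread and, in some alternative fits, the scaling and the covariate. The labels give neither the Cre driver nor the deleted exons. Whole colon holds muscle, nerve, stromal and immune cells beside epithelium, and in bulk RNA fewer cells of a type and less RNA per cell cannot be told apart.

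NEMO, encoded by Ikbkg, is the subunit that regulates the IκB kinase complex. Receptors for TNF, IL-1 and bacterial products activate this kinase, which marks IκB proteins for destruction and so releases NF-κB into the nucleus. In intestinal epithelium NF-κB signalling is known to protect cells from death and to sustain antimicrobial defence, and mice without epithelial NEMO are known for colitis. The question put to this comparison is what the colon of such mice expresses before any cytokine subunit is removed as well.

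Levels were deposited as FPKM, fragments normalised to transcript length and to the size of the library, and changes here are on the scale of log2(FPKM + 0.5), which understates the change of weakly expressed genes. A gene is said to have risen or fallen where limma gave an adjusted p below 0.05 over all 19266 genes tested. Levels are mean ± SD over the 5 mice of a group, and values of single mice are listed from replicate 1 to replicate 5. Relative depth, read from the smallest steps in the FPKM values, was 0.857 to 1.16 across the 10 libraries, and absolute depth is unknown. Mitochondrially encoded RNA held 6.92% to 13.3% of FPKM in Nemofl/fl and 2.97% to 11.0% in NEMOIEC-KO libraries. NEMOIEC-KO replicate 3 expressed Xist at 80.9 FPKM and Y-linked genes at a sum of 0.215 FPKM, so it came from a female, while the other 9 libraries had the male pattern. NEMOIEC-KO replicates 1 and 2 carry the library code K002000079 and the other 8 libraries K002000081.

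The labelled tissue was checked first. Pan-epithelial genes summed to 12985 to 14049 FPKM in Nemofl/fl and 15382 to 17497 FPKM in NEMOIEC-KO libraries. Nemofl/fl replicate 1 had low RNA of the muscle layer: its smooth muscle list stood at -1.1 log2 units relative to the Nemofl/fl mean, and its enteric neuron list at -0.89. Nemofl/fl replicate 2 had high RNA of skeletal muscle (2.76 units above the mean) and of squamous epithelium (1.65 units above it), tissues that adjoin the rectum. These differences among controls touch the stromal lists described further on.

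Ikbkg (ENSMUSG00000004221, chromosome X, 74393290 to 74453854, GRCm38) was lower in every NEMOIEC-KO mouse. It stood at 11.0, 8.27, 8.35, 9.28 and 8.49 FPKM in Nemofl/fl and at 3.1, 5.85, 3.82, 3.29 and 4.33 FPKM in NEMOIEC-KO mice. The highest NEMOIEC-KO mouse lay under the lowest Nemofl/fl mouse, and the means differed by -5.00 FPKM (exact permutation test over all splits, two-sided p = 0.00794, the smallest that 5 against 5 can give). Whole-gene FPKM cannot show which exons were lost, and cells other than epithelium keep the gene.

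Of the 19266 genes tested, 6202 were called, which is 32.2%: 2291 rose (11.9%) and 3911 fell (20.3%). The genes that rose did so by more: their median log2 fold change was 0.69, against -0.54 for those that fell, and over all genes it was -0.08. By at least 2-fold, 714 genes rose (3.71%) and 515 fell (2.67%). A log2 fold change of 3 or more was reached by 89 genes upward and by 7 downward. The 5 mice of a group all lay above the 5 of the other for 1682 genes that were higher (8.73%) and 2593 that were lower (13.5%) in NEMOIEC-KO. Summed over the called genes, 87182 FPKM were gained and -50365 FPKM lost. Among genes of 10 FPKM or more in the higher group, 17.7% rose and 20.8% fell. Of the called genes 36.9% rose as deposited, 47.0% with median-of-ratios scaling and 24.1% with mitochondrially encoded genes removed, so the balance of directions depends on the scaling. The order of the 2-fold counts does too: with mitochondrially encoded genes removed 633 rose and 679 fell by at least 2-fold, and without Nemofl/fl replicate 1 it was 685 each way. With the smooth muscle level of each library as a covariate 1999 genes were called, of which 1922 were among the 6202. The smooth muscle level itself differed between the genotypes, so the covariate shares part of its variation with them.

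**Figure D1:**
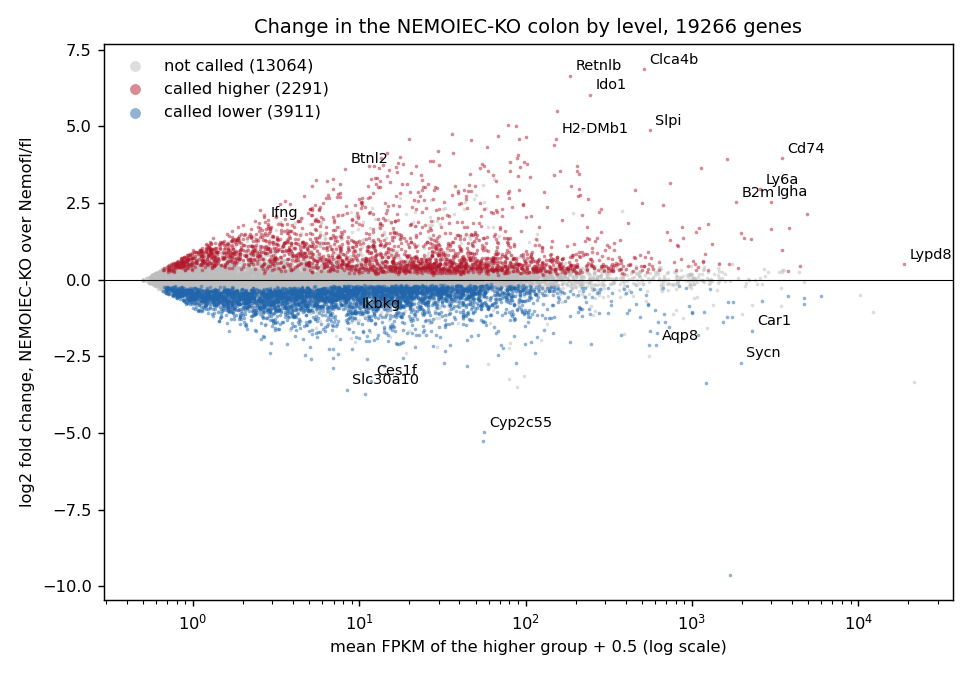
Log2 fold change of NEMOIEC-KO over Nemofl/fl (vertical axis) against the mean FPKM of the higher group plus 0.5 (horizontal axis, log scale) for 19266 genes, with called genes in red (2291 higher) and blue (3911 lower). Increases reach a log2 fold change of 6.87 (Clca4b); the lowest point is mt-Tm, a mitochondrial tRNA gene listed at 0 in all 5 NEMOIEC-KO libraries.

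The interferon-gamma pathway was the first immune pathway examined. Interferon-gamma binds a receptor whose kinases send a signal to the nucleus, which turns on Irf1 and, with it, a broad set of defence and antigen presentation genes. Of 18 pathway genes tested 12 rose and 1 fell, with a median log2 fold change of 1.34. Ifng itself averaged 0.0198 ± 0.0274 FPKM in Nemofl/fl and 2.21 ± 2.1 FPKM in NEMOIEC-KO mice. The receptor chains Ifngr1 (-0.21) and Ifngr2 (-0.01) and the kinases Jak1 (0.05) and Jak2 (0.31) were not called. Downstream of them, Irf1 rose by 1.36. Irf2, a repressor of interferon-driven transcription, fell (log2 fold change -0.51), though not without NEMOIEC-KO replicate 3, where the pathway's count of falling genes was 0.

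Inside this list the largest change was in Nlrc5, the transactivator of MHC class I genes. It stood at 0.876, 1.3, 0.847, 1.2 and 1.0 FPKM in Nemofl/fl and at 20.3, 36.3, 40.3, 19.8 and 28.7 FPKM in NEMOIEC-KO mice (log2 fold change 4.21, SE 0.34, limma adjusted p = 2.3e-08). Ciita, the transactivator of MHC class II genes, went from 0.879 ± 0.349 to 12.9 ± 5.4 FPKM (log2 fold change 3.21). Socs1, a feedback inhibitor of interferon signalling, stood at 1.86, 1.91, 2.72, 1.99 and 2.13 FPKM in Nemofl/fl and at 11.8, 30.0, 40.4, 6.45 and 27.9 FPKM in NEMOIEC-KO mice. For each of these genes the groups did not overlap.

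Interferon-inducible GTPases, which attack vacuoles that hold microbes, rose almost as a whole family. All 11 guanylate-binding proteins tested rose (median log2 fold change 2.35), and so did 8 of 9 immunity-related GTPases (median 3.79), the exception being Irgq at 0.09. Gbp2 stood at 12.7, 19.1, 16.1, 17.6 and 14.1 FPKM in Nemofl/fl and at 153, 257, 286, 88.8 and 232 FPKM in NEMOIEC-KO mice. Its lowest NEMOIEC-KO value, in replicate 4, was above every Nemofl/fl value. Tgtp2 went from 0.45 ± 0.2 to 17.1 ± 10.0 FPKM, but it is nearly identical to Tgtp1 and reads may have been divided between them. Both lists kept every called member when any 1 library was left out. Iigp1 and Ifi47 had the largest changes of the family (4.57 and 5.04).

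Promoter sequences of a few of these genes are shown because letters known from interferon-responsive promoters could be searched there. The windows come from RefSeq on GRCm38.p6 and run from 250 bases before to 50 bases after the annotated start, and 12715 of the 19266 genes tested have one. Both strands were searched for GAS (TTCNNNGAA, the gamma-activated site) and the core of the ISRE (GAAANNGAA, bound by interferon regulatory factors), and further for a kappa-B pattern (GGANTTNCC), CCAAT, HNF4 (CAAAGTCCA), HNF1 (GTTAATNAT) and the CArG box by its name. The GAS and ISRE patterns share letters and can overlap. Capitals mark the matches, on either strand, in these windows of the GTPases and of Irf1.
Gbp2, chr3:142620413-142620712, plus strand: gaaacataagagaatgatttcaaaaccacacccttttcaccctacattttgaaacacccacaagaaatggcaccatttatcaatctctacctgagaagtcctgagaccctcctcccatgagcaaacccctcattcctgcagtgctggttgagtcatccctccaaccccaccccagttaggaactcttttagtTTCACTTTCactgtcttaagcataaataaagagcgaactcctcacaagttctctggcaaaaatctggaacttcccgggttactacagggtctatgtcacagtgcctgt
Igtp, chr11:58199306-58199605, plus strand: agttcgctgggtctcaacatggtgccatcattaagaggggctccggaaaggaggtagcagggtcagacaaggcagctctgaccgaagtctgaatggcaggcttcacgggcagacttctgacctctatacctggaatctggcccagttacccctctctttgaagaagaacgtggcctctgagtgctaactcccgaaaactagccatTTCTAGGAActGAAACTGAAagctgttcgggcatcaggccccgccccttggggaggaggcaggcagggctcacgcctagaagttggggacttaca
Irgm2, chr11:58214727-58215026, plus strand: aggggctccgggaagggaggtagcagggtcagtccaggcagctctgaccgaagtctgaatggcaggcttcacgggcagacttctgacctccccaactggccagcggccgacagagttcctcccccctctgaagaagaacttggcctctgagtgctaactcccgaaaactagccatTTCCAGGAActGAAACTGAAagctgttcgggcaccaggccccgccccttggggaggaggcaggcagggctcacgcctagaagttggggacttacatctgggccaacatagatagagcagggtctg
Irf1, chr11:53769764-53770063, plus strand: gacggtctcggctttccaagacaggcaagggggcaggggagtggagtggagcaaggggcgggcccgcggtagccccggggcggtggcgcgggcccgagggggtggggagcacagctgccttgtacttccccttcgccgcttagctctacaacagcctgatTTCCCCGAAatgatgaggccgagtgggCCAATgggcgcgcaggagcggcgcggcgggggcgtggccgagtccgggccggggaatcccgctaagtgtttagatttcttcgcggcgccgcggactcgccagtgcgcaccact

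In Gbp2 the ISRE core lies on the reverse strand and starts at position -58 from the start site. Igtp has a GAS at -45 and an ISRE core at -34, and Irgm2 has the same pair at -75 and -64, so that 11 bases separate the start of the GAS from that of the ISRE core in both. Irf1 has a GAS at -90. Igtp went from 6.09 ± 0.998 to 102 ± 50.7 FPKM, Irgm2 from 6.26 ± 0.731 to 43.6 ± 14.5 FPKM and Irf1 from 89.4 ± 9.11 to 232 ± 42.0 FPKM. These 4 windows were chosen for display after their values and matches were seen. The window of Ifi47, the GTPase with the largest change, and a second RefSeq window of Irf1 hold none of the patterns searched.

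Across the promoters, an ISRE core was found in 8.88% of the 12715 genes with a window, in 21.3% of the 442 that rose by at least 2-fold and in 7.28% of the 357 that fell by at least 2-fold. For GAS these shares were 8.39%, 12.9% and 5.04%, and for the kappa-B pattern 4.95%, 9.5% and 6.44%. CCAAT ran the other way, at 42%, 38.9% and 47.3%. By list, the ISRE core was present in 5 of 5 guanylate-binding proteins with a window, in 5 of 7 immunity-related GTPases and in 15 of 21 type I interferon response genes. A match describes letters in a window and does not show that a factor binds there.

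Antigen presentation by MHC class I rose together with the machinery that feeds it. Class I molecules show peptides from inside the cell to CD8 T cells; proteasomes cut the peptides and the TAP transporter carries them into the endoplasmic reticulum. Of 21 genes 18 rose and 0 fell (median log2 fold change 1.21). Tap1 stood at 8.16, 11.5, 12.3, 7.91 and 9.12 FPKM in Nemofl/fl and at 76.3, 136, 140.3, 72.7 and 105 FPKM in NEMOIEC-KO mice. All 5 NEMOIEC-KO mice were above the highest control by more than the whole range of the controls. The class I genes H2-Q6 (4.08) and H2-Q7 (4.38) had the largest changes, with the limit that their sequences are nearly identical. B2m, the invariant chain of class I, went from 315 ± 29.0 to 1836 ± 381 FPKM. The chaperone Canx (0.16) and the class I genes H2-Q1 (-0.46) and H2-Q2 (0.24) were not called.

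The immunoproteasome, the form of the proteasome that interferon induces, had all 5 genes higher (median 1.87). Psmb9 stood at 13.8, 13.7, 14.1, 10.3 and 14.3 FPKM in Nemofl/fl and at 102, 171, 201, 122 and 142 FPKM in NEMOIEC-KO mice (log2 fold change 3.4, SE 0.24, limma adjusted p = 3.5e-09). Psmb9 and Tap1 are transcribed away from each other, and their RefSeq promoter windows overlap on opposite strands (chromosome 17, 34187281 to 34187580 and 34187306 to 34187605). Psmb8 rose by 2.96 and Psmb10 by 1.87 on the log2 scale. Subunits of the constitutive core moved far less: 10 of 14 rose, with a median of 0.36 and a largest change of 0.49. That count was 5 without NEMOIEC-KO replicate 3, 6 without Nemofl/fl replicate 1 and 1 with the smooth muscle covariate.

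MHC class II, which shows peptides from outside the cell to CD4 T cells, split into members that rose strongly and members that were not called. The 6 that rose were H2-Aa (3.92), H2-Ab1 (3.65), H2-Eb1 (3.17), H2-DMa (3.37), H2-DMb1 (4.59) and the invariant chain Cd74 (3.97). H2-Aa stood at 97.1, 159.7, 95.0, 100 and 89.8 FPKM in Nemofl/fl and at 1322, 1734, 1717, 1911 and 1441 FPKM in NEMOIEC-KO mice. NEMOIEC-KO replicate 4, the lowest of its group for Gbp2, was here the highest. H2-DMb1, which helps load class II molecules, stood at 5.91, 6.78, 5.91, 6.22 and 4.3 FPKM in Nemofl/fl and at 129, 160.1, 187, 161 and 125 FPKM in NEMOIEC-KO mice. Not called were H2-Oa (0.36), H2-Ob (0.46), H2-Eb2 (0.35) and H2-DMb2 (0.53), and the lysosomal enzymes Ifi30 (0.07) and Ctss (0.07). H2-Oa and H2-Ob are known from B cells, whose markers were not called either. Summed class II FPKM was 872 to 1180.3 in Nemofl/fl and 6245 to 8843 in NEMOIEC-KO libraries.

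The promoter windows of B2m, H2-Aa and Cxcl9 show the letters of these 2 pathways and of a chemokine that interferon-gamma is known to induce.
B2m, chr2:122147437-122147736, plus strand: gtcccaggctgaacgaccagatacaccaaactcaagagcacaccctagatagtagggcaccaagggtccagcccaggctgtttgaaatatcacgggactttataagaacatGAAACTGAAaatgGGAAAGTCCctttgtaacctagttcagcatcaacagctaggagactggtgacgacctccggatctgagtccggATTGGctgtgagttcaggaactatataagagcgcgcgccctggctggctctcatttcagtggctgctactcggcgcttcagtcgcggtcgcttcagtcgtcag
H2-Aa, chr17:34287774-34288073, minus strand: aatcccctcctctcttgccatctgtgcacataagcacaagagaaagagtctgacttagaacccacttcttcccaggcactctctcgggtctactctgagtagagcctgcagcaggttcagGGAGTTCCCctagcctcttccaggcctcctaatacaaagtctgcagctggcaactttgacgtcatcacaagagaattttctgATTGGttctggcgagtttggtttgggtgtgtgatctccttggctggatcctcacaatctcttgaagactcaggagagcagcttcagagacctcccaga
Cxcl9, chr5:92328030-92328329, minus strand: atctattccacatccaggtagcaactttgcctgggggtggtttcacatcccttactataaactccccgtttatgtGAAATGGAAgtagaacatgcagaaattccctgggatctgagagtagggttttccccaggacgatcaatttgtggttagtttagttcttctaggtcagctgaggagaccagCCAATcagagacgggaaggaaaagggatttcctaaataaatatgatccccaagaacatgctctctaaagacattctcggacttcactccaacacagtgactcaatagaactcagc

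B2m holds an ISRE core at -139 and, on the reverse strand, a kappa-B pattern at -126 and CCAAT at -53. H2-Aa holds a kappa-B pattern at -130 and CCAAT on the reverse strand at -48, and no GAS or ISRE letters in this window. Cxcl9 holds an ISRE core at -175 and CCAAT at -65. CCAAT was present in 15 of 16 class I and 8 of 10 class II genes with a window, against 42% of all genes.

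Genes of the type I interferon response, which overlaps with that to interferon-gamma, rose in 27 of 29 cases (median 1.30). Isg15, a ubiquitin-like modifier, stood at 5.47, 8.17, 8.9, 4.5 and 5.33 FPKM in Nemofl/fl and at 39.4, 106, 68.4, 42.4 and 75.5 FPKM in NEMOIEC-KO mice. Replicate 2 was the highest, also for the antiviral enzymes Oas3 (10.2, 23.3, 13.3, 6.62 and 13.3 FPKM in NEMOIEC-KO) and Oasl2 (57.4, 146, 96.7, 61.8 and 92.3 FPKM in NEMOIEC-KO). In the interferon-gamma and GTPase lists replicates 2 and 3 had the highest levels and lay close together. Wars, the tryptophanyl-tRNA synthetase, rose from 40.1 ± 2.28 to 164 ± 62.1 FPKM beside Ido1, which breaks tryptophan down. The next enzymes of that route did not follow: Afmid fell (-0.72), and Kmo (0.41), Kynu (0.31) and Haao (0.14) were not called.

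**Figure D2:**
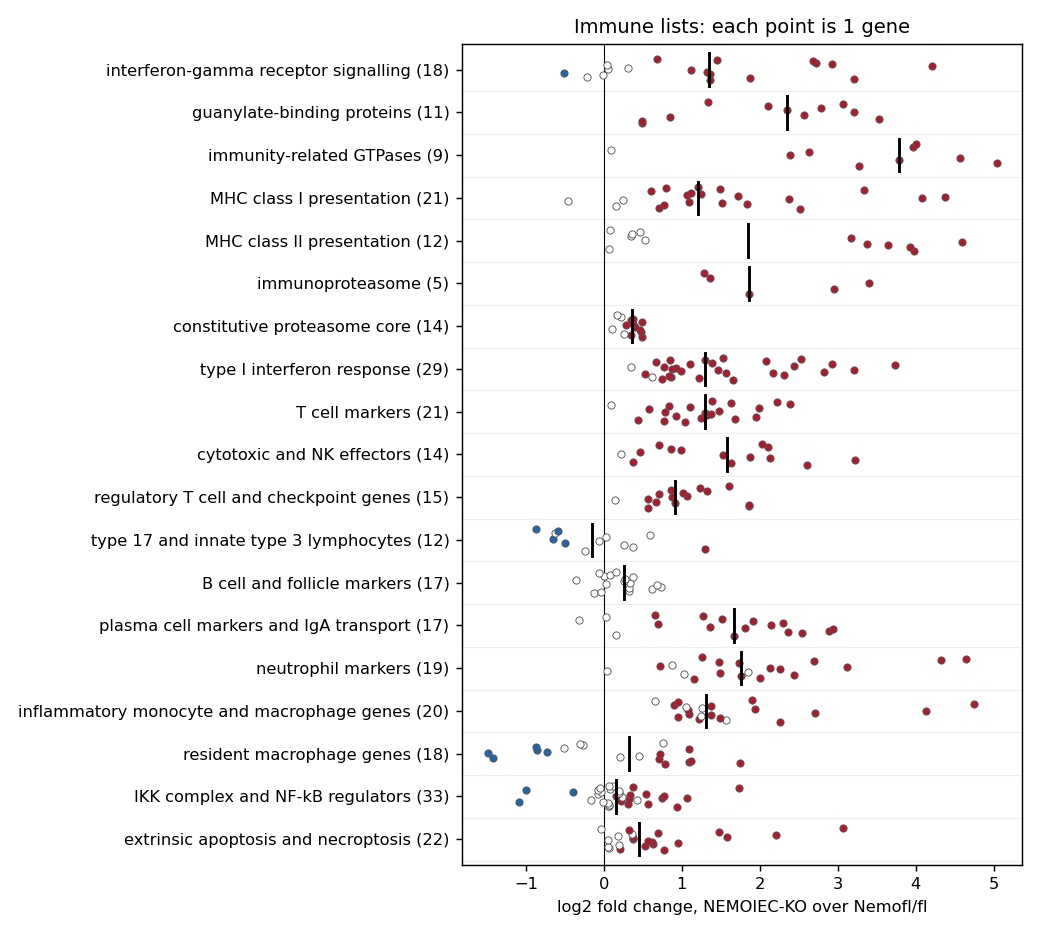
Log2 fold change of NEMOIEC-KO over Nemofl/fl (horizontal axis) for each tested gene (point) of 19 immune lists, with the number of genes in brackets, red for higher, blue for lower, white for not called, and a black bar at the list's median. The immunity-related GTPases have the highest median (3.79), and no B cell or follicle marker is called.

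T cell genes were higher in NEMOIEC-KO. Of 21 markers 20 rose, with a median of 1.30 and Thy1 (0.1) as the exception. Trac, the constant region of the T cell receptor alpha chain, stood at 0.329, 3.06, 0.953, 0.649 and 0.678 FPKM in Nemofl/fl and at 3.92, 9.96, 14.9, 6.28 and 4.26 FPKM in NEMOIEC-KO mice. The lowest NEMOIEC-KO mouse was above the highest control, which was Nemofl/fl replicate 2. Markers of both helper and killer cells rose, with Cd4 at 0.93 and Cd8a at 1.3. Foxp3, the factor of regulatory T cells, rose by 0.91.

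Cytotoxic genes rose in 13 of 14 cases tested (median 1.58). The granzyme Gzmb stood at 0.0728, 0.0762, 0.0927, 0.133 and 0.0688 FPKM in Nemofl/fl and at 1.4, 2.23, 3.53, 1.33 and 2.4 FPKM in NEMOIEC-KO mice. Gzma stood at 3.57, 7.74, 10.6, 4.93 and 2.72 FPKM in NEMOIEC-KO mice, and its highest control value was 0.298 FPKM. The perforin gene Prf1, Gzmk, Ncr1 and Eomes did not pass the filter on low values. Checkpoint and regulatory genes rose in 14 of 15 cases (median 0.91), led by Ctla4 (1.87), Cd274 (1.86) and Tnfrsf9 (1.61). Cd274, which encodes PD-L1, stood at 7.99, 16.9, 15.1, 3.52 and 20.1 FPKM in NEMOIEC-KO mice against 2.65 ± 0.178 in controls, with replicate 4 the lowest and replicate 5 the highest. With the smooth muscle covariate 12 T cell markers, 9 cytotoxic genes and 9 checkpoint genes were called.

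A pair of genes separated the groups with little spread. Btnl2, a butyrophilin-like regulator of T cells, stood at 0.122, 0.158, 0.24, 0.129 and 0.143 FPKM in Nemofl/fl and at 6.6, 9.35, 8.75, 7.53 and 6.27 FPKM in NEMOIEC-KO mice (log2 fold change 3.63, SE 0.26, limma adjusted p = 3.5e-09). Tnfrsf8, the receptor CD30, stood at 0.257, 1.04, 0.927, 0.671 and 0.955 FPKM in Nemofl/fl and at 13.1, 13.2, 14.9, 10.6 and 8.1 FPKM in NEMOIEC-KO mice (log2 fold change 3.31). For both, the lowest NEMOIEC-KO mouse was several times higher than the highest control. Of 8 butyrophilin-like genes tested, Btnl2 included, 4 rose and 0 fell, and 2 rose with the smooth muscle covariate. Among the others, which colonocytes use to hold intraepithelial lymphocytes, Btnl4 rose (0.99) and Btnl1 (0.6) and Btnl6 (0.65) were not called. The call of Btnl4 was lost in 2 of 23 alternative fits. Btnl7-ps rose too, and its call held in all 22 alternatives run for it.

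Type 17 genes did not share this direction. Of 12 tested, Batf rose (1.29) and 4 fell, beside 20.3% of all genes, with a median of -0.15. With the smooth muscle covariate 1 fell. Among those that fell were Il17re, an epithelial receptor chain for IL-17C (-0.65), Maf (-0.58) and Il17f (-0.5). Il17a, Il22 and Il23r did not pass the filter on low values.

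In the B lineage, plasma cell genes rose and B cell genes were not called. Of 17 plasma cell and IgA genes 14 rose (median 1.67), or 9 without NEMOIEC-KO replicate 3 and 6 with the smooth muscle covariate. Igha, the constant region of IgA, stood at 1167, 251, 341, 450.4 and 360.5 FPKM in Nemofl/fl and at 1364, 6339, 3551, 2003 and 1777 FPKM in NEMOIEC-KO mice. NEMOIEC-KO replicate 2 was the highest and replicate 1 the lowest, only a little above Nemofl/fl replicate 1. IgG genes had another order: Ighg2c stood at 2.51, 15.0, 184, 7.05 and 1.39 FPKM in NEMOIEC-KO mice, so that replicate 3 held most of it. The call of Ighg2c was lost in 9 of 23 alternative fits. Pigr, the receptor that carries IgA across the epithelium, was not called (-0.32). Among 190 immunoglobulin V segments tested 62 rose and 0 fell, with a median of 1.56; reads of these segments and of the IgG genes may be divided between near-identical copies.

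B cell and follicle markers had 0 of 17 members called by limma, and a median of 0.25; 0 also had an unadjusted p under 0.05. Cd79a stood at 3.35, 15.1, 10.1, 8.4 and 5.25 FPKM in Nemofl/fl and at 12.8, 16.9, 18.9, 5.32 and 15.4 FPKM in NEMOIEC-KO mice (log2 fold change 0.74, SE 0.52, limma adjusted p = 0.29). The groups overlapped.

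Neutrophil genes rose with a very wide spread between mice. Of 19 tested 15 rose, with a median of 1.76. S100a9, a calcium-binding protein that neutrophils hold in bulk, stood at 1.17, 4.01, 0.702, 0.374 and 0.637 FPKM in Nemofl/fl and at 3.95, 134, 319, 21.0 and 20.7 FPKM in NEMOIEC-KO mice. NEMOIEC-KO replicate 1 lay under the highest control, and replicates 2 and 3 held most of the group's sum. Ltf, the lactoferrin of neutrophil granules, stood at 5.69, 19.6, 44.8, 8.71 and 8.61 FPKM in NEMOIEC-KO mice and reached 7.29 FPKM in Nemofl/fl replicate 2. The count of rising members was 5 without NEMOIEC-KO replicate 3, 7 without NEMOIEC-KO replicate 2, 9 without Nemofl/fl replicate 4 and 2 with the smooth muscle covariate. The granule genes Mpo and Elane, made by precursors in the marrow, did not pass the filter on low values.

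Inflammatory monocyte and macrophage genes rose in 15 of 20 cases (median 1.31; 8 with the smooth muscle covariate). Nos2, the inducible nitric oxide synthase, stood at 17.4, 43.9, 69.9, 9.41 and 37.0 FPKM in NEMOIEC-KO mice, against at most 0.951 FPKM in controls. Fcgr4, an Fc receptor of monocytes, stood at 1.66, 0.808, 0.534, 0.858 and 0.931 FPKM in Nemofl/fl and at 3.17, 16.8, 23.2, 6.56 and 5.87 FPKM in NEMOIEC-KO mice. Replicates 2 and 3 were the highest for both Fcgr4 and neutrophil genes.

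Genes of resident macrophages were divided. Of 18 tested 7 rose and 5 fell, beside 11.9% and 20.3% of all genes. The scavenger receptors Cd163 (-1.42) and Folr2 (-1.49), the receptor Mertk (-0.87), its ligand Gas6 (-0.73) and Hpgds (-0.86) fell, all known from tissue-resident macrophages. Cd163 stood at 2.62, 1.5, 1.54, 2.06 and 2.6 FPKM in Nemofl/fl and at 0.24, 1.12, 0.328, 0.294 and 0.421 FPKM in NEMOIEC-KO mice. Folr2 stood at 5.28, 3.87, 4.32, 3.77 and 4.65 FPKM in Nemofl/fl and at 0.906, 2.06, 0.626, 0.947 and 2.1 FPKM in NEMOIEC-KO mice. Both genes were lower in each NEMOIEC-KO mouse than in each control, and both calls held in every one of 23 alternative fits. Aif1 (1.74), Itgax (1.1) and the complement genes C1qa (1.09) and C1qb (1.12), which inflammatory macrophages express too, rose. The smooth muscle covariate left 3 members higher and 2 lower.

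Chemokine genes rose for both lymphocytes and myeloid cells. Of 18 lymphocyte chemokine and receptor genes 12 rose and 2 fell, and of 18 myeloid chemokines 10 rose. Cxcl9, a ligand of the T cell receptor CXCR3, stood at 0.112, 0.0417, 0.0254, 0.121 and 0.0707 FPKM in Nemofl/fl and at 2.19, 25.1, 29.7, 3.74 and 10.6 FPKM in NEMOIEC-KO mice (log2 fold change 4.12). The 2 that fell were Ccl25 (-0.33) and Ccl28 (-0.55), which epithelial cells are known to make; neither was called without NEMOIEC-KO replicate 3. Cxcl2, which draws neutrophils, stood at 0.183, 15.1, 34.0, 0.41 and 1.74 FPKM in NEMOIEC-KO mice, so that replicate 1 was at the level of controls. The call of Cxcl2 was lost in 13 of 23 alternative fits. The myeloid count was 6 without NEMOIEC-KO replicate 2 or 3 and 3 with the smooth muscle covariate, which left 7 lymphocyte genes higher and 0 lower (limma).

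Of 14 IL-1 family genes tested 9 rose and 3 fell (median 0.71), or 4 and 2 with the smooth muscle covariate. The share that fell was near the 20.3% of all genes. Il1b, a cytokine of activated myeloid cells, stood at 0.783, 0.514, 0.605, 0.349 and 0.199 FPKM in Nemofl/fl and at 2.24, 53.9, 100.3, 4.28 and 19.2 FPKM in NEMOIEC-KO mice. Il18bp, the soluble inhibitor of IL-18, went from 3.11 ± 0.589 to 54.0 ± 26.8 FPKM, while Il18 itself, an epithelial cytokine, went from 155 ± 18.4 to 116 ± 20.2 FPKM. The receptor Il1rl1 (ST2), which binds IL-33, rose by 2.83, with Il33 not called (-0.07). Il1rl2, the receptor for IL-36, fell by 1.01 on the log2 scale.

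Mast cell proteases had a pattern of their own among the mice. Mcpt1, a protease of mucosal mast cells, stood at 0.186, 0.312, 0.434, 0.0727 and 0.277 FPKM in Nemofl/fl and at 6.34, 10.9, 2.89, 6.96 and 35.6 FPKM in NEMOIEC-KO mice. NEMOIEC-KO replicate 5 was the highest and replicate 3 the lowest, whereas replicate 3 was the highest for S100a9. Mcpt2 had the same extremes, at 4.37, 5.89, 1.45, 3.2 and 20.7 FPKM in NEMOIEC-KO mice. Kit, which mast cells share with interstitial cells of Cajal, fell (-0.79).

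The NF-κB pathway itself, of which NEMO is a part, showed 13 of 33 genes higher and 3 lower, with a median of 0.16. The lower ones were Ikbkg, Tab1, an adaptor of the kinase TAK1 (-0.4), and Tnip1, an A20-binding inhibitor (-1.0). Tnip1 stood at 90.9, 78.8, 84.0, 96.3 and 92.9 FPKM in Nemofl/fl and at 48.3, 52.8, 33.2, 42.5 and 45.6 FPKM in NEMOIEC-KO mice. The largest increases were in the atypical or inhibitory members Tnip3 (1.73), Nfkbiz (1.06) and Bcl3 (0.94). Among the members not called were Nfkbia (-0.16, SE 0.13), Tnfaip3 (-0.07, SE 0.16), Birc3 (0.05, SE 0.13) and Relb (-0.07, SE 0.1). These 4 were picked from a list in which 13 members rose. They do not stand for all regulators that NF-κB is known to induce. The kappa-B pattern was in the promoter window of 10 of 27 genes of this list, against 4.95% of all genes. The count of rising members was 8 without NEMOIEC-KO replicate 3 and 7 with the smooth muscle covariate.

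TNF superfamily genes rose in 16 of 26 cases (median 0.64). Tnf stood at 0.247, 0.905, 0.456, 0.998 and 1.42 FPKM in Nemofl/fl and at 2.56, 8.75, 9.94, 1.53 and 3.02 FPKM in NEMOIEC-KO mice. Its receptors Tnfrsf1a (0.7) and Tnfrsf1b (1.68) rose, and so did the death ligand Tnfsf10 (1.47). Without NEMOIEC-KO replicate 3 the count was 10, and with the smooth muscle covariate 9. Of the IL-12 family, Il12b, the shared p40 subunit, stood at 0.0669, 0, 0.0409, 0.0244 and 0.038 FPKM in Nemofl/fl and at 0.0419, 0.219, 0.212, 0.236 and 0.145 FPKM in NEMOIEC-KO mice. These levels are near the lower limit of the table, and the call was lost with the smooth muscle covariate. Il12a (0.1, limma adjusted p = 0.77) and Il23a (0.05, limma adjusted p = 0.85) were not called. The receptor chain Il12rb1 (1.17) and the signal transducer Stat4 (1.28) rose.

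Genes of extrinsic apoptosis and necroptosis rose in 15 of 22 cases and fell in 0 (median 0.46). Ripk3, the kinase of necroptosis, stood at 10.7, 11.8, 12.8, 13.1 and 13.1 FPKM in Nemofl/fl and at 38.6, 64.9, 102, 47.8 and 55.0 FPKM in NEMOIEC-KO mice. Mlkl, the protein that opens the membrane in necroptosis, went from 7.94 ± 1.16 to 25.4 ± 7.46 FPKM. Zbp1, a sensor that engages RIPK3, went from 21.1 ± 3.26 to 188 ± 63.9 FPKM. Caspase-8, which restrains necroptosis, rose as well (Casp8, 0.95), while Ripk1 (0.18) and Fadd (0.05) were not called. Gasdermins, which form pores, and inflammatory caspases had 6 of 16 genes higher and 3 lower (median 0.23), the latter near the 20.3% of all genes. Without NEMOIEC-KO replicate 2 it was 3 higher, and with the smooth muscle covariate 2 higher and 1 lower. Among the gasdermins Gsdmd rose (0.91) and Gsdme (-0.68) and Gsdmc3 (-1.13) fell. Regulators of mitochondrial apoptosis had 8 of 21 genes higher and 1 lower (median -0.02), or 5 higher with the smooth muscle covariate. The 3 Bcl2a1 copies rose by 1.63 to 2.18, but their reads may be divided between near-identical sequences. The BH3-only gene Bmf fell (-0.52).

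Receptors that sense microbes rose in 16 of 28 cases and fell in 1 (median 0.50), and 5 rose with the smooth muscle covariate. Clec7a, the receptor for fungal beta-glucan on myeloid cells, stood at 1.01, 1.03, 0.765, 1.11 and 0.764 FPKM in Nemofl/fl and at 2.03, 8.05, 15.5, 4.3 and 4.88 FPKM in NEMOIEC-KO mice. Nod2, which senses bacterial cell wall, rose by 1.19, and Tmem173, the adaptor STING, by 1.45. Tlr5, the flagellin receptor, fell (-0.54). The sensors Nod1 (0.14) and Nlrp6 (0.29) were not called.

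Complement genes rose in 11 of 21 cases (median 0.66), or in 7 without NEMOIEC-KO replicate 2 and 4 with the smooth muscle covariate. C4b, of the classical pathway, rose by 1.86. C3 was not called (1.23). Adhesion and homing genes rose in 8 of 14 cases (median 0.86; 4 with the smooth muscle covariate), among them Icam1 (1.63), a ligand on endothelium and epithelium, Itgal (1.69), its leukocyte receptor, and Madcam1 (1.39), the gut homing ligand. The endothelial markers Pecam1 (-0.27) and Cdh5 (-0.05) were not called.

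Of 16 genes of the IL-6, IL-10 and gp130 family 8 rose, or 5 without NEMOIEC-KO replicate 3 and 3 with the smooth muscle covariate, and 1 fell. Il11, a cytokine of stromal cells, stood at 0.381, 0.277, 0.259, 0.0274 and 0.144 FPKM in Nemofl/fl and at 0.478, 3.25, 5.13, 0.434 and 2.83 FPKM in NEMOIEC-KO mice. Osmr, the oncostatin M receptor, rose (1.24) with its ligand Osm (1.35), while Lifr, the receptor for leukaemia inhibitory factor, fell (-0.94).

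Structural genes of the epithelium changed little. Of 16 pan-epithelial genes 6 rose and 1 fell (3 and 1 with the smooth muscle covariate), with a median of 0.24 and a range from -0.63 to 0.46. Cldn7, a claudin of the lateral membrane, stood at 652, 638, 684, 724 and 741 FPKM in Nemofl/fl and at 1009, 916, 953, 851 and 974 FPKM in NEMOIEC-KO mice. Ocln, the tight junction protein occludin, fell from 48.4 ± 3.36 to 31.7 ± 7.43 FPKM. Among other junction genes Cldn4 (0.85) rose, Cldn1 fell (-1.07) and Cldn2, a pore-forming claudin, was not called (-0.35).

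Some genes of ion and water transport in colonocytes were lower. Of 29 tested 11 fell and 2 rose, with a median of -0.51. Slc26a3, the chloride-bicarbonate exchanger of the apical membrane, stood at 941, 353, 535, 451 and 474 FPKM in Nemofl/fl and at 174, 132, 42.0, 168 and 144 FPKM in NEMOIEC-KO mice. Aqp8, a water channel of colonocytes, stood at 736, 442, 545, 672 and 662 FPKM in Nemofl/fl and at 236, 169.8, 12.4, 312 and 305 FPKM in NEMOIEC-KO mice. NEMOIEC-KO replicate 3 was the lowest for both, and all NEMOIEC-KO mice lay under all controls. The call of Aqp8 was lost in 8 of 23 alternative fits. Carbonic anhydrase Car1 stood at 1065, 308, 550.3, 1457 and 723 FPKM in NEMOIEC-KO mice, against 1918, 2397, 2588, 2404 and 2096 FPKM in Nemofl/fl. The count of falling genes was 6 without NEMOIEC-KO replicate 3, 7 without Nemofl/fl replicate 1 or 4, and 3 with the smooth muscle covariate. The genes that rose were Clca4b and Aqp4 (1.24). Sodium channel subunits were divided, with Scnn1a lower (-0.53) and Scnn1b (-0.25) and Scnn1g (0.3) not called.

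Transcription factors of the intestinal epithelium changed in 10 of 27 cases: 4 rose and 6 fell, the latter near the background of 20.3%, and with the smooth muscle covariate 0 rose (limma) and 1 fell. Cdx2 (-0.62), Hnf4a (-0.18) and Klf5 (-0.18), which set intestinal identity and growth, were not called. Isx, an intestinal homeobox factor that represses carotenoid uptake, stood at 0.391, 0.534, 0.469, 0.521 and 0.817 FPKM in Nemofl/fl and at 4.25, 6.74, 13.8, 4.38 and 5.06 FPKM in NEMOIEC-KO mice, but its call too was lost with that covariate (limma adjusted p = 0.063). Foxa2, a forkhead factor, fell from 20.1 ± 3.72 to 11.3 ± 1.19 FPKM, and Ppargc1a, a coactivator of mitochondrial genes, fell by 0.71 on the log2 scale.

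The guanylin pathway, which regulates salt and water secretion through cyclic GMP, had 3 of 6 genes lower and 1 higher (median -0.33). Guca2a, the guanylin precursor, stood at 575, 632, 839, 891 and 707 FPKM in Nemofl/fl and at 315, 436, 115, 243 and 231 FPKM in NEMOIEC-KO mice, and its call was lost without NEMOIEC-KO replicate 3. The receptor Gucy2c fell (-0.43), as did the phosphodiesterase Pde5a (-0.89). Pde9a, another phosphodiesterase for cyclic GMP, rose from 235 ± 31.6 to 706 ± 208 FPKM. Its lowest NEMOIEC-KO mouse, at 565 FPKM, was above the highest control, at 264 FPKM.

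Among solute carriers 8 of 25 fell and 6 rose, beside 20.3% and 11.9% of all genes. Slc20a1, a phosphate transporter, went from 247 ± 98.9 to 58.5 ± 24.7 FPKM, and Slc15a1, a peptide transporter, from 99.0 ± 13.1 to 40.2 ± 20.7 FPKM. The butyrate transporters Slc5a8 (-0.92) and Slc16a1 (-0.79) fell, while Slc16a3, which exports lactate, rose (1.25). Slc51b, a subunit of the bile acid exporter, rose from 12.2 ± 3.54 to 44.2 ± 22.2 FPKM. Without NEMOIEC-KO replicate 3 the count of falling carriers was 5, as it was with the smooth muscle covariate, where 1 rose.

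Xenobiotic metabolism was lower in most of its genes. These enzymes and pumps inactivate and export foreign compounds. Of 35 genes tested 27 fell and 0 rose, with a median of -1.06, and 14 fell with the smooth muscle covariate. Cyp2c55, a cytochrome P450, stood at 49.2, 48.6, 75.4, 52.6 and 51.4 FPKM in Nemofl/fl and at 2.12, 0.659, 0.142, 1.93 and 3.09 FPKM in NEMOIEC-KO mice. The carboxylesterase Ces1f stood at 18.3, 7.04, 11.1, 8.46 and 11.3 FPKM in Nemofl/fl and at 0.256, 0.697, 0.476, 0.511 and 1.66 FPKM in NEMOIEC-KO mice. The drug efflux pump Abcb1a stood at 141, 68.0, 82.6, 108 and 92.7 FPKM in Nemofl/fl and at 30.1, 25.4, 7.93, 25.6 and 31.4 FPKM in NEMOIEC-KO mice. For none of these did the groups overlap. Glutathione transferases fell together (Gstm1 -1.81, Gstm3 -1.46, Gstt1 -1.31), as did the retinal dehydrogenase Aldh1a1 (-1.7). Vdr, the vitamin D receptor, stood at 174, 136, 129, 141 and 131 FPKM in Nemofl/fl and at 82.2, 69.5, 27.5, 65.7 and 66.7 FPKM in NEMOIEC-KO mice, and Nr1i2, the xenobiotic sensor PXR, fell by 0.4 on the log2 scale.

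The promoter window of Cyp2c55 is shown beside that of the smooth muscle gene Myl9 as an example of genes that fell.
Cyp2c55, chr19:39006769-39007068, plus strand: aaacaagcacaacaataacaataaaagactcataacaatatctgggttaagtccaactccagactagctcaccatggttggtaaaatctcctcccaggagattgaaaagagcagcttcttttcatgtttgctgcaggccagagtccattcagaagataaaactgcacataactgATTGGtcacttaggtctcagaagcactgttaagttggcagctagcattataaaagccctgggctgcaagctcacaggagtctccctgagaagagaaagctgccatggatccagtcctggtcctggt
Myl9, chr2:156775214-156775513, plus strand: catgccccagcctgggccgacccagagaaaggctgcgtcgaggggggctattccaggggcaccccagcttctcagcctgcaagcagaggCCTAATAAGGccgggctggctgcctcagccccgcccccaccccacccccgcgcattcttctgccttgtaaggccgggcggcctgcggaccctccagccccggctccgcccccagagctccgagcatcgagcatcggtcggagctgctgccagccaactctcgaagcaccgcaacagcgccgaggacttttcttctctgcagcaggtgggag

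Cyp2c55 holds CCAAT on the reverse strand at -76 and none of the interferon, kappa-B or HNF letters. Myl9 holds a CArG box at -161, the pattern that serum response factor is known to bind. The HNF4 letters were in 3 of 30 xenobiotic genes with a window, against 0.558% of all genes. Their shares were alike in both directions, at 1.58% of genes that rose and 1.4% of genes that fell by at least 2-fold. The CArG box was in 1 of 13 smooth muscle genes, against 1.61% of all genes. It was in 0.905% of genes that rose and 2.52% of genes that fell by at least 2-fold.

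Genes of fuel use changed as well. Colonocytes are known to burn butyrate, and of 27 genes of fatty acid oxidation and ketogenesis 14 fell and 2 rose (median -0.30). Pdk4, which diverts pyruvate from oxidation, stood at 2.42, 5.88, 5.95, 5.28 and 5.33 FPKM in Nemofl/fl and at 1.47, 0.879, 0.484, 1.03 and 1.96 FPKM in NEMOIEC-KO mice. The groups did not overlap. Pck1, of gluconeogenesis, fell from 67.6 ± 21.1 to 12.3 ± 4.76 FPKM. Hk2, a hexokinase of glycolysis, stood at 51.6, 40.5, 66.2, 71.6 and 59.9 FPKM in Nemofl/fl and at 109, 128, 215, 99.0 and 164 FPKM in NEMOIEC-KO mice, and 9 of 24 genes of glycolysis and the hypoxia response rose and 2 fell (3 and 0 with the smooth muscle covariate). Pgk1 (0.68) and Eno1 (0.5) were among those that rose, and Aldoa (0.07), Gapdh (0.4) and Ldha (0.2) were not called.

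Cholesterol synthesis rose in 14 of 21 genes and fell in 0 (median 0.62). Cyp51, an enzyme of the late pathway, stood at 17.6, 17.5, 19.9, 23.5 and 21.3 FPKM in Nemofl/fl and at 37.6, 38.2, 42.3, 37.2 and 43.4 FPKM in NEMOIEC-KO mice. Fdps, of the isoprenoid steps, rose by 1.05. The 5 NEMOIEC-KO mice lay close together in this list, at 0.508 to 0.676 log2 units above the Nemofl/fl mean. With the smooth muscle covariate 3 genes were called, and the list's median was 0.33.

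Defence proteins of the epithelium and of neutrophils rose in 20 of 25 cases and fell in 1. Slpi, a protease inhibitor of mucosae, stood at 9.59, 26.3, 16.3, 18.4 and 24.2 FPKM in Nemofl/fl and at 436, 612, 690.4, 368 and 688 FPKM in NEMOIEC-KO mice. RNA of Pla2g2a, a gene for a secreted phospholipase, stood at 2.35, 2.1, 1.14, 2.55 and 3.67 FPKM in Nemofl/fl and at 23.1, 82.4, 242, 65.9 and 40.7 FPKM in NEMOIEC-KO mice. Whether mice of this strain make the active enzyme from it was not tested. Reg3b, a lectin against bacteria, stood at 0.751, 1.1, 0.698, 0.205 and 0.239 FPKM in Nemofl/fl and at 1.95, 22.4, 424, 8.59 and 1.37 FPKM in NEMOIEC-KO mice. Replicate 3 alone held most of the Reg3b RNA, and its call was lost in 11 of 23 alternative fits. Wfdc2, a protease inhibitor of goblet cells, fell from 542 ± 47.2 to 326 ± 123 FPKM. Under the smooth muscle covariate 9 members rose. The oxidase partners Duoxa2 (2.77) and Duoxa1 (2.45) rose with Duox2 (2.17), while Cat (-0.59) and Sod1 (-0.5), which remove hydrogen peroxide and superoxide, fell.

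Goblet cell genes went both ways, with 7 of 20 higher and 4 lower, the latter near the background of 20.3%, or 3 and 0 with the smooth muscle covariate (limma). Muc2, the main mucin, was not called (0.55, SE 0.25), nor were Zg16 (-0.07), Tff3 (-0.15) and Fcgbp (-0.33). Spink4, a secreted protease inhibitor, stood at 1034, 982, 1218, 1107 and 1528 FPKM in Nemofl/fl and at 2486, 4599, 3524, 4447 and 3998 FPKM in NEMOIEC-KO mice. The factor Spdef rose (0.6) and Atoh1, which commits cells to secretory fates, was at -0.72 with its call lost in 12 alternative fits. The 4 falling members dropped to 1 without NEMOIEC-KO replicate 3 or Nemofl/fl replicate 3, 4 or 5, and to 2 without NEMOIEC-KO replicate 1 or 4 or Nemofl/fl replicate 1.

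Among rarer epithelial cells, tuft cell markers fell in 7 of 11 cases and rose in 1 (median -0.44). Trpm5, the taste channel of tuft cells, stood at 1.15, 0.551, 0.664, 0.729 and 1.32 FPKM in Nemofl/fl and at 0.125, 0.256, 0.161, 0.346 and 0.347 FPKM in NEMOIEC-KO mice. Alox5 (-0.77), Ltc4s (-1.02) and Ptgs1 (-0.77), which make lipid mediators, fell. Under the smooth muscle covariate 0 tuft genes were called by limma, and 2 fell when the libraries compared were limited to code K002000081. Enteroendocrine markers had 2 of 18 higher and 1 lower, shares under the 11.9% and 20.3% of all genes, and 0 were called (limma) without NEMOIEC-KO replicate 3 or with the smooth muscle covariate. Of crypt stem cell and Wnt target genes 3 of 18 fell, a share under the 20.3% of all genes, namely Ascl2 (-0.98), Nkd1 (-0.79) and Znrf3 (-0.5), and Lgr5 was not called (-0.33); the covariate left 0 of them lower (limma).

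Genes known from repairing epithelium rose in 12 of 25 cases and fell in 0, and 7 rose with the smooth muscle covariate. Ly6a, known as Sca-1, stood at 251.6, 334, 339, 316 and 367 FPKM in Nemofl/fl and at 1924, 2624, 4026, 2079 and 2233 FPKM in NEMOIEC-KO mice. Ly6a is also induced by interferon and expressed by T cells and endothelium. Plaur, the urokinase receptor, rose from 3.81 ± 0.702 to 23.2 ± 17.5 FPKM, and the growth factors Areg (1.47) and Hbegf (1.29) rose. The YAP targets Ccn1 (0.65) and Ccn2 (-0.59) were not called.

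Proliferation genes showed 3 of 27 higher: Mcm3 (1.03), Ccnd1 (0.87) and Ccne1 (0.73). The median was 0.45, 1 member was called with the smooth muscle covariate, and 9 were called without NEMOIEC-KO replicate 1, whose list level was -0.25 log2 units relative to the Nemofl/fl mean. In the other 4 NEMOIEC-KO mice it was 0.41 to 0.93. The share of members that rose was thus near the 11.9% of all genes. Mki67 (0.19) was not called. Genes of the unfolded protein response rose in 16 of 26 cases, or in 7 with the smooth muscle covariate. Manf, a stress-induced protein of the endoplasmic reticulum, stood at 89.5, 71.2, 92.2, 74.9 and 78.2 FPKM in Nemofl/fl and at 135, 175, 245, 153 and 179.8 FPKM in NEMOIEC-KO mice, whereas Ddit3, which promotes death under such stress, was not called (-0.35).

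Mitochondrially encoded genes fell in 5 of 13 cases (median -0.62), but in 1 without NEMOIEC-KO replicate 2 or 3 and in 3 without Nemofl/fl replicate 1, and in 1 with the smooth muscle covariate. mt-Nd4, a subunit of complex I, stood at 2096, 1713, 1600, 1756 and 1664 FPKM in Nemofl/fl and at 1206, 945, 894, 1132 and 1210 FPKM in NEMOIEC-KO mice. Nuclear genes of the respiratory chain (2 of 26 higher, median 0.03) and cytosolic ribosomal proteins (2 of 26 lower, median -0.01) were near 0.

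**Figure D3:**
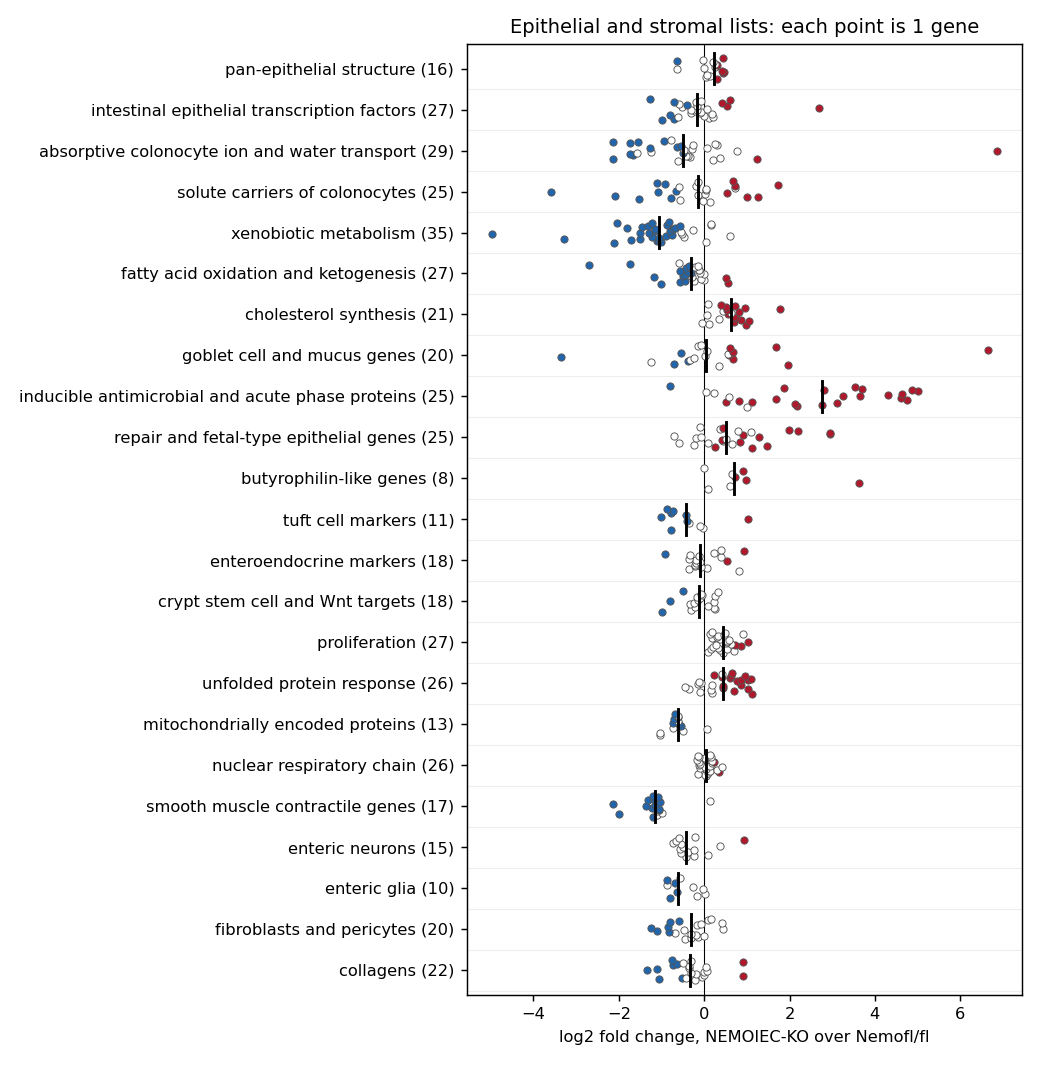
Log2 fold change of NEMOIEC-KO over Nemofl/fl (horizontal axis) for each tested gene (point) of 23 epithelial and stromal lists, drawn as for the immune lists. Xenobiotic metabolism (27 of 35 lower) and smooth muscle (13 of 17 lower) lie mostly to the left of 0, antimicrobial proteins (20 of 25 higher) to the right.

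Smooth muscle genes were lower in NEMOIEC-KO. Of 17 contractile genes 13 fell, with a median of -1.15, but in 1 of them alone, Casq2, did the groups not overlap. Myl9, a myosin light chain, stood at 699, 2461, 1744, 1509 and 1278 FPKM in Nemofl/fl and at 852, 408, 275, 631 and 822 FPKM in NEMOIEC-KO mice. Nemofl/fl replicate 1 lay within the NEMOIEC-KO range and replicate 2 was far above the other controls. Casq2, a calcium-binding protein of muscle, stood at 6.56, 14.9, 13.7, 10.9 and 8.41 FPKM in Nemofl/fl and at 4.09, 1.85, 0.692, 2.26 and 4.07 FPKM in NEMOIEC-KO mice. The count of falling genes was 2 without NEMOIEC-KO replicate 2 or 3 or Nemofl/fl replicate 2 or 3, 3 without Nemofl/fl replicate 4, 6 without Nemofl/fl replicate 5, 7 without NEMOIEC-KO replicate 4 and 15 at most when another library was left out. By construction 1 was left when the covariate made from this level was in the fit. How much of the whole muscle layer each sample held was not tested.

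Of the other stromal cells, interstitial cells of Cajal, the pacemakers of the gut, had 5 of 7 markers lower (median -0.62). Kcnk3 stood at 2.19, 5.28, 3.99, 4.58 and 3.5 FPKM in Nemofl/fl and at 1.49, 1.16, 0.583, 1.96 and 1.1 FPKM in NEMOIEC-KO mice. Glial markers fell in 4 of 10 cases, and in 0 (limma) without NEMOIEC-KO replicate 3 or Nemofl/fl replicate 2 or 4, 1 without NEMOIEC-KO replicate 2 and 2 without Nemofl/fl replicate 3. The smooth muscle covariate also left 0 (limma), and moved their median from -0.61 to -0.15. Of 15 neuronal markers 0 fell by limma and Tac1, also an enteroendocrine peptide gene, rose (0.92); without Nemofl/fl replicate 1, 5 fell. Fibroblast markers fell in 6 of 20 cases (median -0.30), beside 20.3% of all genes. Among them Dpt fell from 83.9 ± 26.7 to 37.7 ± 6.84 FPKM, while Pdgfra (-0.17), Col1a1 (-0.01) and Col3a1 (-0.3) were not called. Of 22 collagens tested 7 fell and 2 rose, beside 20.3% and 11.9% of all genes. Those that fell included Col4a5 (-1.34) and Col4a6 (-1.1), which lie next to each other on chromosome X. With the smooth muscle covariate 1 fibroblast marker, 1 collagen and 3 markers of interstitial cells fell. Metalloproteinases and related genes rose in 11 of 25 cases, or in 3 with the smooth muscle covariate. Mmp10, which degrades matrix in wounds, stood at 0.73, 0.453, 0.268, 0.319 and 0.345 FPKM in Nemofl/fl and at 2.74, 18.8, 31.0, 1.92 and 16.2 FPKM in NEMOIEC-KO mice, with replicates 1 and 4 far below the other 3.

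The 5 NEMOIEC-KO mice differed from each other far more in some pathways than in others. Over the 714 genes that rose by at least 2-fold, the median SD of log2 values was 0.59 among NEMOIEC-KO and 0.26 among Nemofl/fl mice. Over the 515 that fell by at least 2-fold it was 0.46 and 0.33, and over all genes 0.20 and 0.19. Both sets were chosen by their change between these same mice, and the added 0.5 FPKM narrows the log2 spread of genes that are low in a group. The contrast of spreads over the 714 genes is thus partly set by that choice. Replicate 3 was the mouse farthest from the controls for 489 of the 714 (68.5%) and replicate 2 for 143 (20%). Replicate 1 was the nearest for 368 (51.5%) and replicate 4 for 212 (29.7%). The median log2 difference of these genes from the control mean was 1.04, 1.84, 2.16, 1.18 and 1.35 in replicates 1 to 5. For the 515 genes that fell by at least 2-fold it was -1.05, -1.38, -1.87, -1.14 and -1, with replicate 3 farthest for 409 (79.4%). Replicate 3 had a part in choosing both sets: without it 540 genes rose and 324 fell by at least 2-fold. Replicate 3 was the female mouse, so its sex and its distance from the others cannot be told apart.

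By list, antigen presentation was alike in the 5 mice and neutrophil genes were not. The mean log2 level of class I genes relative to controls was 1.24, 1.71, 1.75, 1.48 and 1.39 in replicates 1 to 5. Class II genes stood at 1.86, 2.14, 2.33, 1.97 and 1.92. Neutrophil markers stood at 0.46, 2.74, 3.73, 1.30 and 1.51, so that replicate 1 was close to Nemofl/fl replicate 2 (0.43). The IL-1 family stood at 0.33, 1.55, 1.96, 0.61 and 1.1, and myeloid chemokines at 0.27, 1.77, 2.08, 0.44 and 1.19. The mice with the lowest neutrophil levels, replicates 1 and 4, still carried raised class I and class II RNA. Xenobiotic genes stood at -0.96, -1.14, -1.72, -0.92 and -0.82. Smooth muscle genes stood at -0.50, -1.62, -2.07, -1.1 and -0.61, the same order of mice, upside down, as for neutrophil genes apart from replicates 4 and 5, and their part in the immune results was not tested beyond the covariate counts given above.

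**Figure D4:**
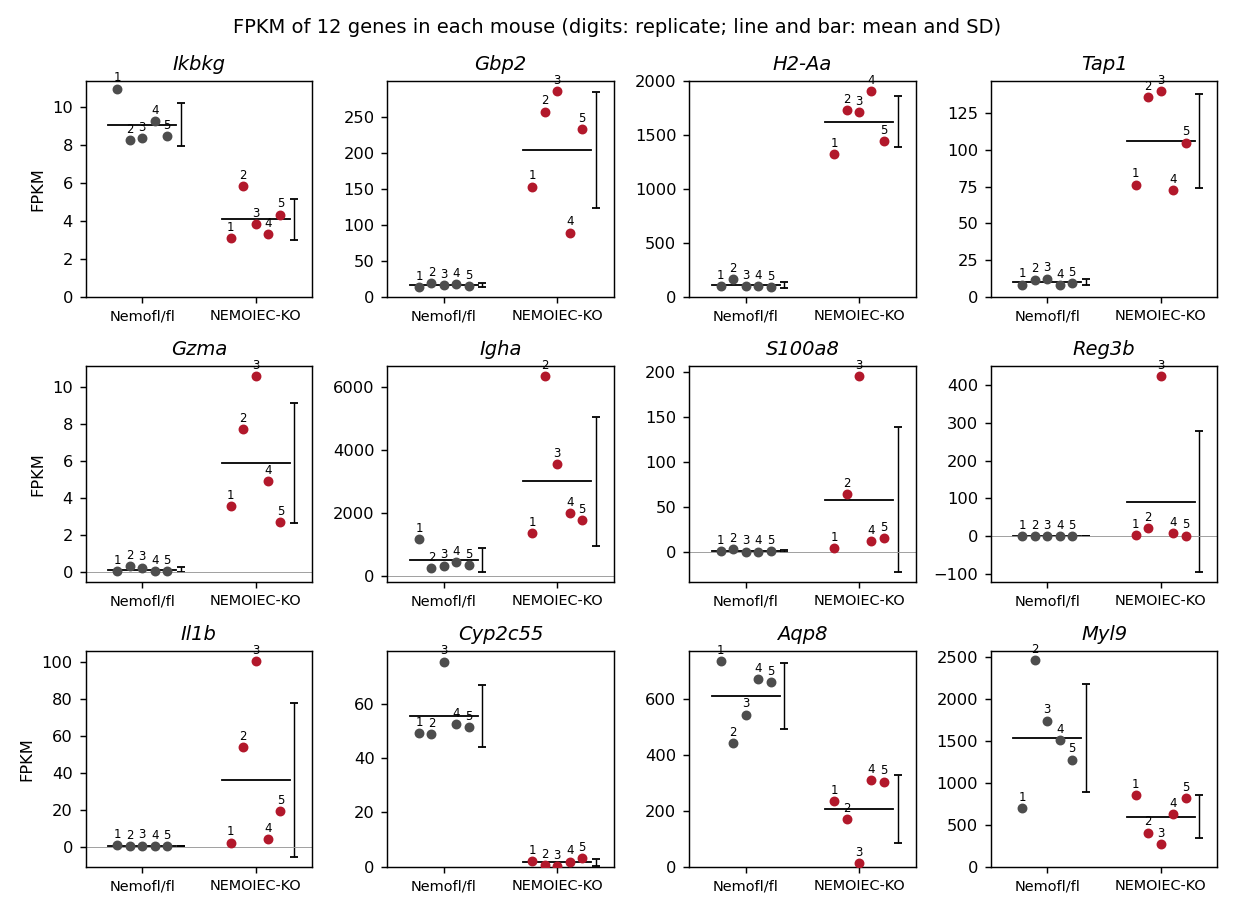
FPKM (vertical axes, each with its own scale) of 12 genes in the 5 Nemofl/fl (grey) and 5 NEMOIEC-KO (red) mice; digits give the replicate, the line the mean and the bar the SD, which for Reg3b, S100a8 and Il1b reaches under 0. Gbp2, H2-Aa and Tap1 separate all mice, while Reg3b is carried by NEMOIEC-KO replicate 3 (424 FPKM).

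**Figure D5:**
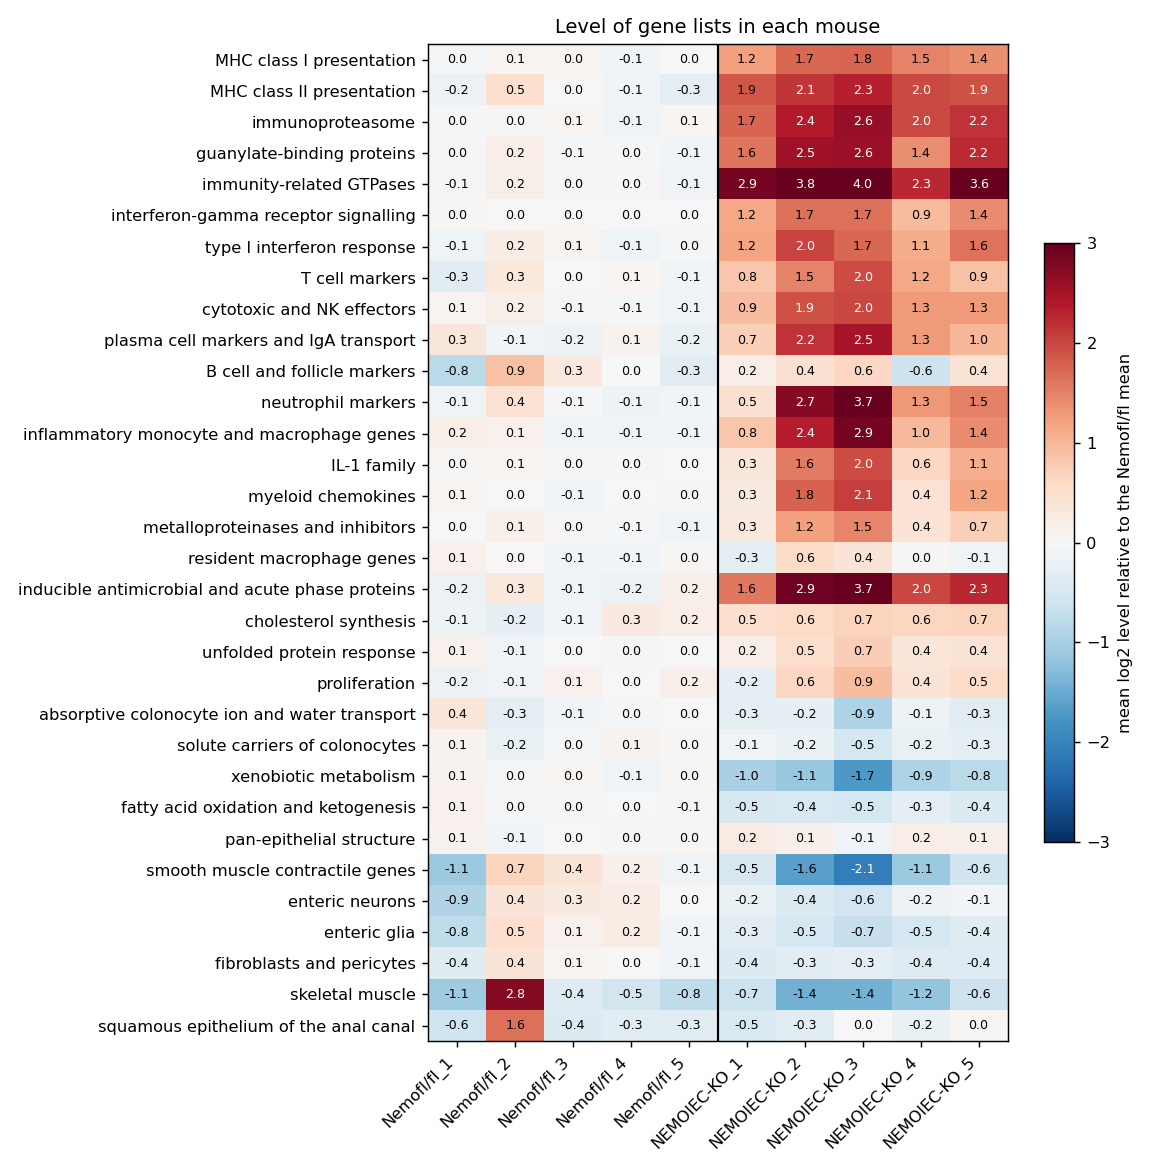
Mean log2 level of 32 gene lists (rows) in each of the 10 libraries (columns), relative to the Nemofl/fl mean of each gene, red for above and blue for below, with the value printed in each cell. MHC class I ranges from 1.24 to 1.75 over the NEMOIEC-KO mice and neutrophil markers from 0.46 to 3.73.

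Genes that changed by at least 2-fold in the same direction lay side by side at several loci (GRCm38, with neighbours taken among the genes tested). On chromosome 17, from 34153072 to 34216321, 7 neighbouring genes rose, H2-DMb1, Psmb9, Tap1, Psmb8 and Tap2 among them. On the same chromosome, from 35379617 to 35474563, the 5 genes H2-Q4 to H2-Q10 rose. On chromosome 11, from 48861968 to 49135387, 6 neighbours from Irgm1 to Tgtp1 rose, and on chromosome 15, from 74813452 to 74998031, 6 neighbours that end with Ly6e, Ly6i and Ly6a. Downward, the 4 genes Cyp2c55, Cyp2c65, Cyp2c67 and Cyp2c68 fell together on chromosome 19 (39007019 to 39741054), and so did Ces1d, Ces1e, Ces1f and Ces1g on chromosome 8 (93166068 to 93337308). Members of such clusters resemble each other in sequence, and reads may be divided between them.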

How the data were processed

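RNA of the distal colon was sequenced as stranded, poly(A)-selected paired-end libraries, 1 per mouse, per the labels' protocols. The authors deposited FPKM values per gene for every library, without counts, so depth is known only relative to the other libraries. The submitters' processing notes name TopHat2 2.0.10, Cufflinks 2.1.1, DESeq2 1.10.1 and GRCm38, without their roles. An FPKM of exactly 0 can be a failed estimate: of 11172 genes at 5 FPKM or more in 1 of the 10 libraries, 355 were listed at 0 in another.

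Genes with FPKM of at least 0.2 in at least 5 of the 25 libraries were kept. Values were tested as log2(FPKM + 0.5) with limma 3.58.1 in R 4.3.3: all 25 libraries shared 1 estimate of the spread with a mean per genotype, variances followed a trend with level, and p-values were adjusted by Benjamini-Hochberg over the 19266 genes. The procedure was tested on simulated data first. The labels call the mice biological replicates. Replicate numbers did not pair the samples: the correlations of same-numbered mice were -0.116 to 0.032. Alternatives were other pseudocounts, filters, scalings, sample sets, covariates and leaving out each library.

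The comparison, the 70 gene lists and the rule for named genes were chosen with earlier results of these data known. The rule names the IL-12 subunits and Ikbkg, the genes with the largest fold, the largest FPKM difference, the widest gap or the largest spread among mutants, and for each list up to 3 called genes a direction. Genes outside that rule, such as B2m, Igtp, Irgm2, Irf1 and list members given by their log2 fold change alone, were named after their values were seen. Lists are described by counts of called genes, mostly with their median, and the shares and median over all genes are given once for all. Some genes stand in more than 1 list. Irf8, Cyba and Il26 were not analysed here. Results of a few genes are not reported here.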

Additional observations from a re-analysis of the deposited data

Results flagged for a closer look

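In groups of 5 mice, 110 comparisons of a single mouse with its group were made on the genes the text turns on, and 7 (6.36%) had 1 mouse far from the other 4; chance gives about 1 in 20. Of these, 4 concerned Nemofl/fl replicate 2, which was the highest control for the ubiquitin-like gene Ubd (4.71 FPKM), the GTPase Iigp1 (2.19 FPKM), the calcium-binding protein S100a8 (2.985 FPKM) and the invariant chain Cd74 (333 FPKM). The same library had the highest levels of squamous epithelium and skeletal muscle genes, and whether these go together with the immune genes was not tested. Nemofl/fl replicate 3 stood apart for Cyp2c55 (75.4 FPKM). NEMOIEC-KO replicate 2 stood apart for the RNA-binding protein gene Igf2bp2 (1.17 FPKM). NEMOIEC-KO replicate 3 was listed at 0 for the complement gene C2, which the other 4 NEMOIEC-KO libraries expressed.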

How the results depend on the processing

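No gene called both in the fit reported and in any of 23 alternatives changed direction. Of the 6202 called genes 1631 (699 higher and 932 lower, 26.3%) were called in all 23 alternatives. A gene that an alternative did not test counts here as not called, and the filter at 1 FPKM left 15028 genes to test. In the fit reported and in each of the 10 fits that left out 1 library, 3778 (60.9%) were called. Of 255 called genes that the naming rule gave, 134 were called in every alternative that could be run. The smooth muscle covariate left 823 genes higher and 1176 lower, and counts by at least 2-fold were 305 upward and 102 downward. With a pseudocount of 0.1, 979 genes fell by at least 2-fold. Leaving out 1 library in turn gave 1545 to 2562 genes higher and 2706 to 4243 lower, with 540.0 to 855 higher and 324 to 685 lower by at least 2-fold, and the lowest values of all 4 counts came without NEMOIEC-KO replicate 3. For Ikbkg the difference was -5.44 to -4.52 FPKM when 1 library was left out. With the replicate number as a block 6205 genes were called, 2255 of them higher, and 5907 were shared with the fit reported; the numbers mark no shared litter or day in the labels, and 1 of 5 mice correlated best with its own number. Without NEMOIEC-KO replicates 1 and 2, the 8 libraries compared all carried code K002000081, and 4767 genes were called, 4463 of them shared. The other 15 libraries of the series, none of that code, still entered the estimate of the spread. Of 70 list medians 11 changed sign in some alternative, each a list whose reported median lay between -0.43 and 0.33, such as resident macrophage, goblet, endothelial and neuronal genes. Absolute depth is unknown, and for genes under 1 FPKM in both groups 5.80% rose and 12.5% fell.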
